A study of Mus musculus with 48 samples.

Results

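MitoPBN and decylubiquinone are antioxidants that reach mitochondria by different chemistry, and 3 of the 48 arrays in this series measured RNA from cultures that received one of them. MitoPBN couples phenyl-tert-butylnitrone, a spin trap that captures carbon-centred and superoxide-derived radicals, to a triphenylphosphonium cation, which draws it into mitochondria along their membrane potential. Decylubiquinone is a ubiquinone analogue in which a short decyl tail replaces the long isoprenoid tail of coenzyme Q; it can accept electrons from respiratory chain dehydrogenases, and its reduced form is a chain-breaking antioxidant. The members are defined by their labels: the arrays titled as replicates 1 and 2 of MitoPBN and the single array of the compound spelled Decyclubiquinone in the labels. Earlier results of these data were known when they were chosen. They were set against all 10 control arrays of the series.

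The study exposed cortical neuron cultures of CD-1 (outbred) mice to NMDA, a glutamate receptor agonist that kills neurons by calcium overload, in the presence of 36 candidate protective molecules. Cultures were kept for 7 days, incubated with a compound for 1 h, given NMDA in hypotonic salt solution for another 1 h, and after 16 h of recovery RNA was taken for Illumina MouseWG-6 arrays. All 13 cultures compared here received NMDA, the controls included: 5 mock controls had water, and 5 vehicle controls had DMSO, the solvent of MitoPBN and decylubiquinone. The labels give protection ratios of 1.07 and 1.16 for the MitoPBN arrays, 1.02 for decylubiquinone and 1.00 for the controls, and assign neither compound to the protective or the non-protective class. MitoPBN carries the mechanism label of a free radical scavenger, and decylubiquinone an anti-apoptotic one.

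Doses are not in the labels, so the compounds are set side by side as the cultures stand and not at matched doses. On the second array the compound is labelled MitoPBN2, and whether that is a different substance is not given, so the pair was compared both as replicates and as 2 separate treatments. Nor do the labels say whether arrays of a group came from separate cultures; p-values then measure only the spread between these samples, which may be technical.

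Excess calcium entry through NMDA receptors loads mitochondria with calcium, raises superoxide production and can open the permeability transition pore. Cells answer mitochondrial and oxidative trouble with a few well-known transcription programmes. In the integrated stress response, phosphorylation of eIF2alpha favours translation of the factor ATF4, which drives amino acid supply genes. Nrf2, released from KEAP1 when thiols are oxidized, drives glutathione and detoxification genes, and mitochondrial nucleic acids that leak into the cytosol can drive interferon genes.

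The share of probes detected (detection p under 0.01) was 30.6% and 32.0% on the MitoPBN arrays, 34.0% on the decylubiquinone array and 29.3% to 38.3% on the controls. Median signals before normalization were 65.2, 45.9 and 63 on the 3 compound arrays and 40.7 to 80.1 on the controls. The defining neuronal markers Tubb3, Map2, Syp and Gad1, the astrocyte markers Gfap and Slc1a3, the oligodendrocyte lineage markers Olig1 and Sox10 and the microglial markers C1qa and C1qb were detected on all 13 arrays, so these were mixed cultures and not neurons alone. The endothelial marker Cldn5 was detected on none of them. In RNA from a whole culture, fewer cells of a type and less RNA per cell cannot be told apart. Each array chip holds positions A to F. The 10 controls all lay at positions A or B, both MitoPBN arrays at E and the decylubiquinone array at C, so position and treatment cannot be told apart within these 13 arrays.

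The MitoPBN cultures held less RNA of motile cilia, dividing-cell and interferon genes than the controls, and more RNA of integrated stress response genes. General neuronal markers were higher than the control mean on both arrays (median log2 differences of 1.04 and 0.96), but vehicle control 1 was higher still (1.41). On a log2 intensity scale, and with limma's adjusted p under 0.05 as the threshold, 2253 of 17815 probes tested (12.6%) differed between the 2 MitoPBN arrays and the 10 controls, 720 higher (4.04%) and 1533 lower (8.61%). Counted once per gene, 334 of 9869 genes rose (3.38%) and 963 fell (9.76%). The median log2 difference over all genes tested was -0.02. The median size of the difference among probes that passed was 0.86 on the log2 scale.

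The count belongs to the pair of arrays and to these controls. Vehicle 1 and mock 2 stood apart from the other controls for neuronal and cilia genes respectively, and without both, an alternative chosen after seeing the data, 4221 probes passed (1899 higher, 2322 lower). With the second MitoPBN array alone 1 probe passed, and with the first alone 706 did. None of the gene lists had a member past the threshold with the second array alone, and with the first alone 5 stress response, 4 interferon, 9 cilia, 1 cell division, 7 DNA replication and 1 neuronal gene passed. The balance of rises and falls depended on scaling: with arrays scaled to equal medians over all probes, 8 probes were higher and 1252 lower, and the median of all genes moved to -0.40. With medians taken only over probes detected on all 13 arrays, 657 were higher and 910 lower and that median was 0.04. When the 2 MitoPBN arrays were set against the 6 arrays of other compounds at position E instead of the controls, 0 probes passed in limma and 1241 had an unadjusted p under 0.05; with all 48 arrays and terms for chip and position, the numbers were 0 and 2596.

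**Figure D1:**
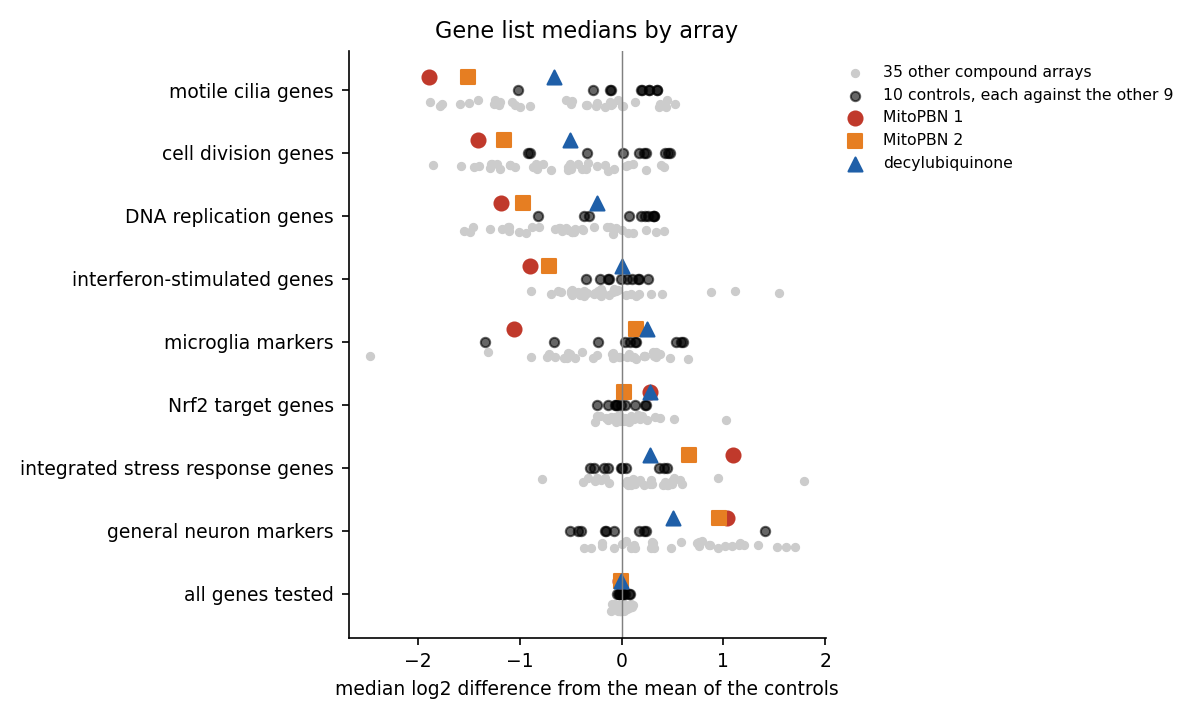
Median log2 difference from the control mean over the measured genes of 8 lists and over all genes tested, by array: 2 MitoPBN arrays, 1 decylubiquinone array, 10 controls (each against the other 9) and 35 other compound arrays. The MitoPBN arrays lie beyond the controls for cilia (-1.90 and -1.51), interferon (-0.90 and -0.71) and integrated stress response genes (1.09 and 0.67), while decylubiquinone lies within the control range for all 3 lists.

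Because the promoters of stress and interferon genes carry well-described short motifs, those of members that passed were read from RefSeq (GRCm38.p6) as windows of 300 bases around the start of transcription. In all, 4 motifs were searched on both strands, 1 for each of 4 lists. The C/EBP-ATF response element, searched as TGATGNAA, was found for 3 of the 7 risen integrated stress response genes with a promoter in the table (Asns, Chac1 and Trib3), against 4.51% of 27025 genes. The interferon-stimulated response element, searched as GAAA, any 2 bases and GAAA, with overlaps allowed, was found for 4 of 7 fallen interferon genes (Gbp3, Bst2, Rsad2 and Stat2), against 3.99% of genes. The RFX X-box of cilia genes, searched as GTTNCC, AT and GGNAAC without gaps, was found for 0 of 10 fallen cilia genes with a promoter, against 0.152% of genes. Of all measured members with a promoter, 6 of 17 stress response, 5 of 12 interferon and 0 of 12 cilia genes matched. The lists hold genes of these programmes, so a share above that of all genes does not tie a motif to the change. A match describes the letters in the window and is not evidence of binding. The promoters of the Asns and Chac1 genes, as examples of what rose, and of Gbp3, as an example of what fell, are given 5′ to 3′ on the gene's strand with matches in capitals. They lie at chr6:7693160-7693459 (minus strand), chr2:119350992-119351291 (plus strand) and chr3:142559794-142560093 (plus strand).
Asns: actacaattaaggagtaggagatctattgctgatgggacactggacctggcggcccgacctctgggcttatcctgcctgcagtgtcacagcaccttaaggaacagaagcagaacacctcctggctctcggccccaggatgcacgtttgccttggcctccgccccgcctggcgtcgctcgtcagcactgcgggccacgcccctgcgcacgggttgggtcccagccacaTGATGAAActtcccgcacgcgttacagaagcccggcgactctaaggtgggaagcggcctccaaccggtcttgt
Chac1: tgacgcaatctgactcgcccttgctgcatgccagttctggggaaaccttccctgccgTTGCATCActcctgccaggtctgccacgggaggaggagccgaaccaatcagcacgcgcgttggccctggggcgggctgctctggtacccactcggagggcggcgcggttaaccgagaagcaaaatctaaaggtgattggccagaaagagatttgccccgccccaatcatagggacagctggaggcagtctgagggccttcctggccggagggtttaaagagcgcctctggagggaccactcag
Gbp3: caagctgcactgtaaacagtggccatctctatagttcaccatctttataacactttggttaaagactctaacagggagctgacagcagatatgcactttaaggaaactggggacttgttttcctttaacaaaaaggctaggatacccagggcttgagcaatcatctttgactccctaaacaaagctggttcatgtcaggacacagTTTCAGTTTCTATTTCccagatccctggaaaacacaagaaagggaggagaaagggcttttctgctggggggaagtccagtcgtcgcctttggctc

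Of 26 integrated stress response genes listed, 19 were measured; 8 rose and none fell, against 3.38% and 9.76% of all genes. All 19 lay above the control mean in the average of the MitoPBN arrays. With arrays scaled to equal medians over all probes the list's MitoPBN median was 0.46, or 0.87 above that of all genes, and none of the 8 passed. Against the vehicle controls alone 3 of the 19 passed, and with chip as a fixed block 2. The list's median was 1.09 on the first MitoPBN array and 0.67 on the second, and the controls ranged from -0.31 to 0.45, so both arrays lay above every control.

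Chac1, which encodes an enzyme that cleaves glutathione, had log2 intensities of 10.50 and 9.27 on the MitoPBN arrays, against 7.24, 7.92 and 9.21 as the lowest, median and highest control. Both MitoPBN values lay above all 10 controls, the second by a small margin. The rise was 3.52-fold (log2 1.82, SE 0.46; limma adjusted p = 0.0220).

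Asns, asparagine synthetase, read 11.27 and 10.48 on the MitoPBN arrays, and the controls had a lowest value of 9.07, a median of 9.63 and a highest of 10.35. Again neither MitoPBN array overlapped the controls, and the fitted rise was 2.35-fold (log2 1.24, SE 0.30; limma adjusted p = 0.0192).

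Slc7a5, the light-chain transporter that brings leucine into cells, stood at 12.18 and 11.45, above a control range of 9.84 to 11.40 with a median of 10.23. Its rise was 2.72-fold (log2 1.44, SE 0.34; limma adjusted p = 0.0172). Atf4, the factor at the centre of the programme, gave 10.97 and 10.14, and the highest control was 10.12. It rose 2.74-fold (limma adjusted p = 0.0308), with the second MitoPBN array only just beyond the controls.

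Trib3, a pseudokinase that is itself an ATF4 target, showed how unequal the pair was: 9.47 on the first array and 8.20 on the second, with controls of 5.91 to 8.42 and a median of 6.94. The first array was above all controls and the second was within their range, although the gene passed the test (3.57-fold, limma adjusted p = 0.0370). Ddit3, the pro-apoptotic factor CHOP, behaved alike, with 9.99 above and 9.08 inside a control range of 7.66 to 9.23. Cebpb and Atf5, a pair of bZIP factors, also rose by 0.62 and 0.96 on the log2 scale.

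**Figure D2:**
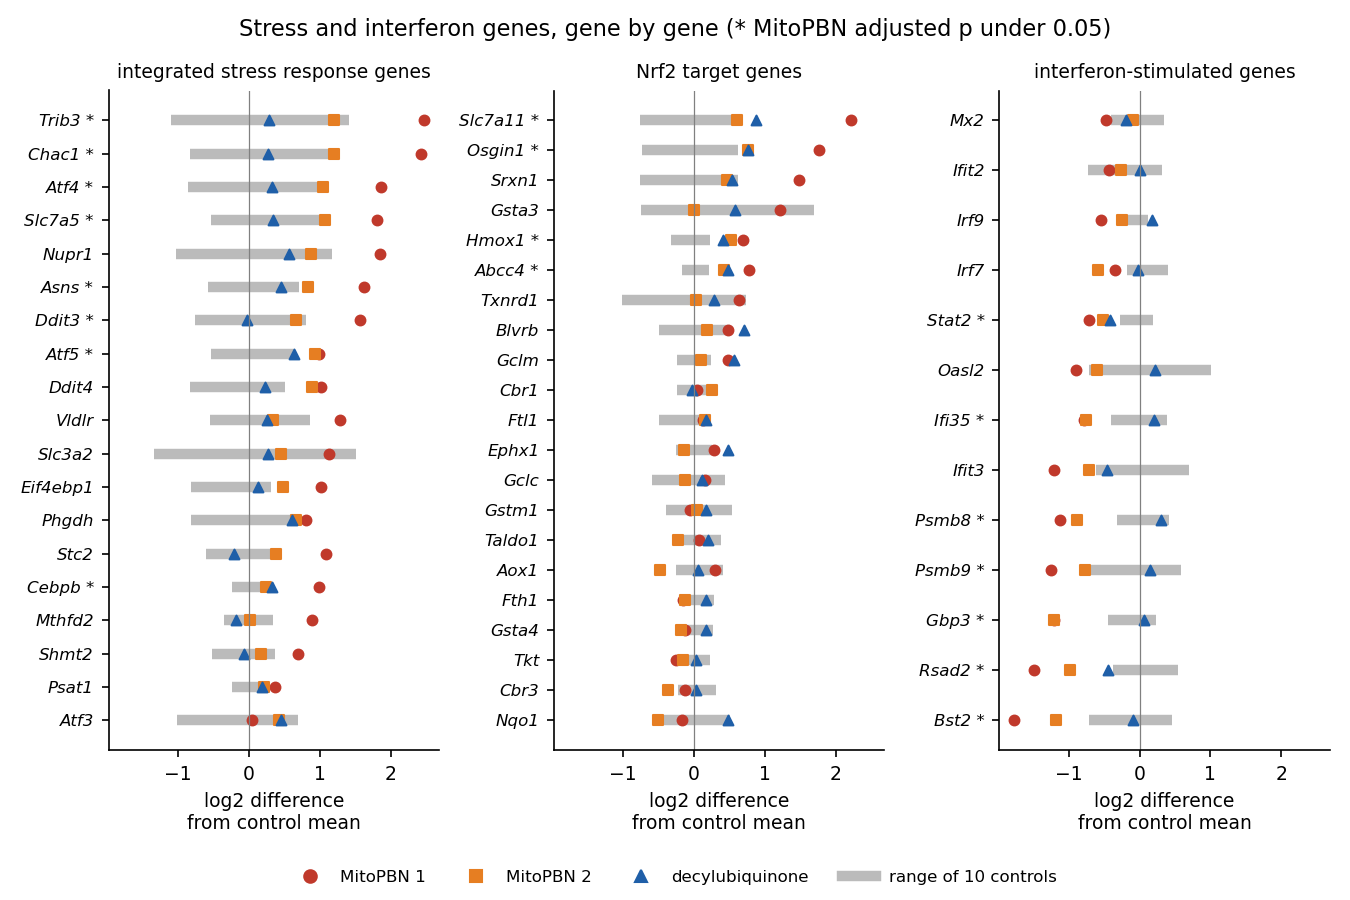
Log2 difference from the control mean for each measured gene of 3 lists, with the range of the 10 controls as a grey bar and MitoPBN 1, MitoPBN 2 and decylubiquinone as separate marks; an asterisk marks genes past the MitoPBN test. The first MitoPBN array lies right of the second for most stress response genes, while both lie left of the controls for 10 of 13 interferon genes.

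The decylubiquinone array did not lie beyond the controls for this list. Its median over the 19 genes was 0.28, inside the control range, although 15 of the 19 lay above the control mean. Of the 19, 2 genes (Cebpb and Phgdh) lay above all controls, against 5.06% of all genes. Chac1 read 8.34, Asns 10.10, Slc7a5 10.72 and Atf4 9.43, each within the controls. The difference between MitoPBN and decylubiquinone was 1.55 for Chac1 (95% interval -0.0035 to 3.09) and 0.78 for Asns (-0.24 to 1.80), and neither passed after adjustment. With 1 culture, a smaller rise and no rise cannot be told apart.

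Within a chip, the first MitoPBN array stood 1.23 above its mock and vehicle controls for the stress response list, and the second 0.19 above the 1 control on its chip. Among the 6 other compounds at position E the list's median ran from -0.38 to 1.79 with a median of 0.12; the MitoPBN median was still 0.53 higher than those arrays, though no gene passed there.

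Interferon-stimulated genes, which encode antiviral and antigen-processing proteins, moved the other way. Of 22 listed genes 13 were measured, 7 fell (53.8%, against 9.76% of all genes) and none rose, and all 13 lay below the control mean. The list medians were -0.90 and -0.71 on the MitoPBN arrays, against -0.35 to 0.26 for the controls. Decylubiquinone sat at 0.01.

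Bst2, also called tetherin, which holds budding viruses at the cell surface, had intensities of 8.94 and 9.52 on the MitoPBN arrays and 9.99, 10.80 and 11.16 as the lowest, median and highest control. Both arrays were below every control, and the fall was 2.78-fold (log2 -1.47, SE 0.26; limma adjusted p = 0.00509). The decylubiquinone array read 10.61, near the control median.

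Gbp3, an interferon-induced guanylate-binding protein, was the most even of the group, at 7.63 and 7.62 on the MitoPBN arrays and between 8.38 and 9.06 in the controls. It fell 2.31-fold (log2 -1.21, SE 0.16; limma adjusted p = 0.00272), and decylubiquinone was at 8.89. The difference between MitoPBN and decylubiquinone was -1.27 (95% interval -1.83 to -0.71), which did not pass after adjustment over all probes.

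Psmb8, a catalytic subunit of the immunoproteasome, fell by 1.003 on the log2 scale (limma adjusted p = 0.00530), from controls of 9.41 to 10.14 to values of 8.60 and 8.84. Rsad2, viperin, fell by 1.24 (limma adjusted p = 0.00611), with 6.22 and 6.72 below controls of 7.33 to 8.25; it is a gene for which decylubiquinone, at 7.26, also lay below all controls. Stat2, which relays the interferon signal to the nucleus, fell by 0.61 and was the other gene with decylubiquinone below the controls, at 5.87 against a lowest control of 6.02.

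Markers of microglia, the immune cells of the brain, were uneven between the MitoPBN arrays. Of 12 measured microglial markers 0 passed in limma in either direction, but 6 passed as lower with chip as a fixed block (median -0.96), and 1 with chip as a random block or with mock controls only. Their median was -1.06 on the first MitoPBN array and 0.14 on the second, with controls from -1.34 to 0.61. Summed over the list on the linear scale, the level was 6205 and 14440 against 5774 to 18460 in the controls. C1qa, a complement component, read 8.75, below controls of 9.003 to 11.36, and 9.85, within them. The second array, with microglial markers inside the control range, had an interferon median of -0.71. Within its chip, that array's medians were -0.45 for microglial markers and -0.65 for interferon genes. Whether the microglial and interferon values are linked was not tested. The inflammatory and NF-kB list had 2 of 12 genes lower (16.7%, against 9.76% of all genes): Icam1, by 0.99, and Vcam1, by 0.63, both adhesion molecules.

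Within their chips the interferon medians were -0.81 and -0.65 for the MitoPBN arrays. The 6 other compounds at position E had medians from -0.89 to 0.29, and the MitoPBN median was 0.47 lower than those arrays.

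Motile cilia genes gave the largest shift of any list in size. Of 20 listed, 16 were measured, and 14 fell (87.5%, against 9.76% of all genes). The medians were -1.90 and -1.51 on the MitoPBN arrays and -0.66 on the decylubiquinone array, while the controls ran from -1.02 (mock 2) to 0.34. Such genes are expressed in ependymal cells, which line the brain's ventricles and carry beating cilia.

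Cfap206, a component of the radial spoke base in the axoneme, had intensities of 5.35 and 6.10 on the MitoPBN arrays, 7.16 on the decylubiquinone array and 7.26, 8.39 and 8.70 as the lowest, median and highest control. All 3 compound arrays lay below every control. For MitoPBN the fall was 5.83-fold (log2 -2.54, SE 0.31; limma adjusted p = 0.00247). For decylubiquinone it was 2.16-fold, which did not pass.

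Morn5, a protein of motile cilia and sperm flagella, read 6.88 and 7.80 on the MitoPBN arrays and 8.70 with decylubiquinone, all below a control range of 8.77 to 10.17. Its fall with MitoPBN was 5.52-fold (limma adjusted p = 0.00272). Tekt1, a tektin that stabilizes ciliary microtubules, had 6.88 and 8.23 against controls of 8.73 to 10.22; decylubiquinone, at 9.02, overlapped the controls. Foxj1, the master transcription factor of motile ciliogenesis, fell by 1.78 on the log2 scale and was 0.23 below the control mean with decylubiquinone.

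Cfap161, Odf3b and Rsph1, further axonemal genes, were among the largest shared falls (5.46-, 5.05- and 3.98-fold). Outside the cilia list the falls of over 5-fold included Ccn5, a matricellular protein (6.09-fold), Hdc, histidine decarboxylase, which makes histamine (5.49-fold), and the uncharacterized transcript 6820408C15Rik (6.11-fold). Tagln, a smooth muscle actin-binding protein, was not detected on either MitoPBN array and was at least 2.60-fold lower there. Arhgap22, a Rac-directed GTPase-activating protein, was at least 3.08-fold lower by the same bound, the mean of the controls over the lowest signal of a detected probe on each MitoPBN array.

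Genes of dividing cells followed the same order, with 64.3% of cell division and 62.5% of DNA replication genes fallen, against 9.76% of all genes. For cell division 9 of 14 measured genes fell and none rose, with medians of -1.41 and -1.16 on the MitoPBN arrays, -0.51 with decylubiquinone and -0.92 to 0.48 in the controls. For DNA replication 10 of 16 fell and none rose, with -1.19, -0.97, -0.24 and -0.82 to 0.32 in the same order. Decylubiquinone was within the controls for both lists.

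Cdk1, the kinase that starts mitosis, read 8.07 and 8.19 on the MitoPBN arrays against 9.0 to 10.51 in the controls, and it fell by 1.80 on the log2 scale (limma adjusted p = 0.00650). Rrm2, the ribonucleotide reductase subunit that supplies deoxynucleotides, gave 6.65 and 7.02 against 8.13 to 9.39, a fall of 2.04 (limma adjusted p = 0.00310). The decylubiquinone array had 9.41 for Cdk1 and 8.44 for Rrm2, inside both control ranges. The MitoPBN minus decylubiquinone difference for Rrm2 was -1.60 (95% interval -2.69 to -0.51) and did not pass after adjustment.

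Falls of this kind were not confined to MitoPBN. Among the other compounds at position E, cilia medians ran from -1.88 to 0.45 with a median of -0.66, and division medians from -1.86 to 0.39 with a median of -0.82. Of 38 compound arrays the first MitoPBN array had the lowest cilia median and the second ranked 6 from the lowest. Within chips, the cilia median was -2.21 below controls for the first array and -0.64 for the second, whose only control is mock 2.

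General neuronal markers had 6 of 20 risen with MitoPBN (30%, against 3.38% of all genes), none fallen and medians of 1.04 and 0.96. These medians ranked 10 and 12 from the highest of 38 compound arrays. With decylubiquinone the median was 0.50, and 19 of the 20 genes lay above the control mean. Vehicle 1, however, had a median of 1.41, above all 3 compound arrays, and the highest of the other 9 controls was 0.24. Sncb, beta-synuclein of presynaptic terminals, illustrates this: 8.41 and 8.14 on the MitoPBN arrays, 7.29 with decylubiquinone and 5.73, 6.05 and 8.23 as the lowest, median and highest control. Its fold was 3.92 (limma adjusted p = 0.0222), yet the second MitoPBN array was below the highest control. Of the defining neuronal markers, Map2, Syp and Slc17a6 lay within the controls on both MitoPBN arrays, and Tubb3 and Gad1 lay above them.

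Nefm, the medium neurofilament chain of axons, separated more clearly, with 6.94 and 6.53 against 4.97 to 5.52, a rise of 1.43 (limma adjusted p = 0.00247). Gad1, which makes GABA in inhibitory neurons, read 10.99 and 10.98, above controls of 9.54 to 10.40, and rose 2.01-fold (limma adjusted p = 0.00723). Decylubiquinone, at 10.42, lay just above that range. Grin2a, an NMDA receptor subunit, was detected on both MitoPBN arrays and on 0 of 10 controls and the decylubiquinone array. Excitatory neuron markers went both ways, with 1 of 11 risen (9.09%, against 3.38% of all genes) and 2 fallen (18.2%, against 9.76%). Their medians of 0.05 and 0.53 lay within controls of -0.21 to 0.86. Bcl11b, a transcription factor of deep-layer projection neurons, rose by 0.71. Fezf2, another such factor, fell by 0.53, with 8.47 and 8.70 below controls of 8.89 to 9.34. Emx1, a cortical transcription factor, passed as lower and was detected on 8 of 10 controls and neither MitoPBN array. Synapse genes had 2 of 21 risen (Rab3a and Sv2a), and astrocyte markers 2 of 18 (Ndrg2 and Hes5). These shares are 9.52% and 11.1%, against 3.38% of all genes.

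The largest single rise was that of Uba6, an E1 enzyme that charges ubiquitin and FAT10, with 12.64 and 11.77 on the MitoPBN arrays, 11.38 with decylubiquinone and 8.31, 10.07 and 10.77 as the lowest, median and highest control. All 3 compound arrays lay above every control, and the MitoPBN rise was 4.77-fold (log2 2.26, SE 0.49; limma adjusted p = 0.0122). Prmt8, a brain arginine methyltransferase, followed at 3.08-fold, with all 3 arrays above the controls, decylubiquinone barely so (6.20 against 6.19). Gsta2, a glutathione transferase, rose 2.96-fold.

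**Figure D3:**
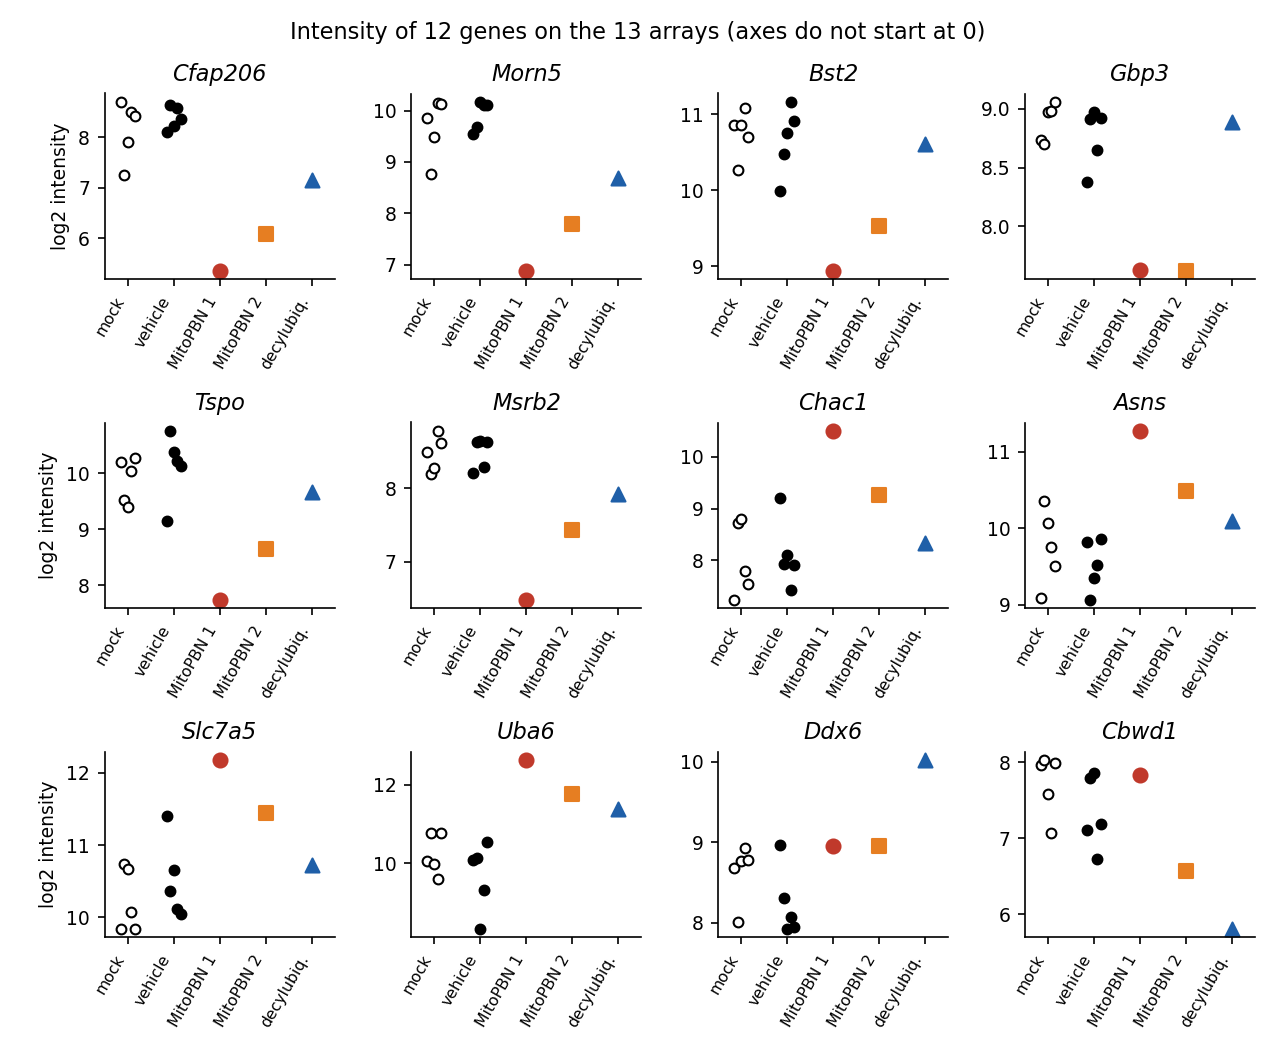
Log2 intensity of 12 genes on the 5 mock controls (open circles), the 5 vehicle controls (filled circles), both MitoPBN arrays and the decylubiquinone array; axes do not start at 0. For Gbp3 the MitoPBN values of 7.63 and 7.62 lie below all controls and decylubiquinone (8.89) among them, while for Ddx6 only decylubiquinone (10.02) stands clear.

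Genes of coenzyme Q synthesis and the respiratory complexes, which bear directly on a mitochondrial antioxidant, had few members past the threshold. Coenzyme Q synthesis had 0 of 8 measured genes past limma's threshold, and complexes II and III and ATP synthase 0 of 3, 0 of 7 and 0 of 14. Complex I had 1 of 32 lower (Ndufb7, an accessory subunit, by 0.72) and complex IV 1 of 11 lower (Cox7a1, the muscle-type subunit, by 0.96). These shares, 3.12% and 9.09%, were below the 9.76% of all genes that fell. Medians of complexes I to IV and ATP synthase on the compound arrays lay between -0.09 and 0.12 on the log2 scale. The first MitoPBN array was outside the controls for complex I (-0.08 against -0.06 to 0.10) and complex IV (0.12 against -0.14 to 0.11). The other medians of these lists lay inside. Medians of coenzyme Q synthesis were -0.11 and -0.17 with MitoPBN and -0.06 with decylubiquinone, within controls of -0.29 to 0.30.

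Msrb2, which repairs oxidized methionine in mitochondria, was the only gene to pass among the 10 mitochondrial antioxidant enzymes measured. The list's share of falls, 10%, was thus near the 9.76% of all genes. Msrb2 read 6.48 and 7.43 on the MitoPBN arrays and 7.92 with decylubiquinone, against 8.20, 8.56 and 8.78 as the lowest, median and highest control. All 3 compound arrays lay below all controls, in the order of the first MitoPBN array, the second and decylubiquinone. The MitoPBN fall was 2.87-fold (log2 -1.52, SE 0.22; limma adjusted p = 0.00272), and the decylubiquinone difference of -0.56 did not pass. Gpx1 (11.55 and 12.01, lowest control 12.03) and Prdx3 (9.91 and 9.80, lowest control 9.94) were also below all controls on both MitoPBN arrays, without passing. Sod2, the manganese superoxide dismutase that removes matrix superoxide, was at 10.14 and 10.34 with MitoPBN and 10.44 with decylubiquinone, within controls of 9.996 to 10.64.

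Tspo, the outer membrane translocator protein that is abundant in microglia and reactive astrocytes, fell 3.51-fold (log2 -1.81, SE 0.35; limma adjusted p = 0.00679). Its values of 7.74 and 8.64 were below a control range of 9.14 to 10.75, and decylubiquinone at 9.67 was inside it. No other member of the 10 uncoupling and pore genes measured passed, so the list's share of falls, 10%, was near the 9.76% of all genes. Slc25a27, a neuronal uncoupling protein, read 8.57 and 8.41, above controls of 7.003 to 8.28, with a limma adjusted p of 0.0675.

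Ubiquinone-reducing dehydrogenases, the enzymes that feed electrons to coenzyme Q beside complex I, had 3 of 8 genes lower (37.5%, against 9.76% of all genes) and none higher. Etfa, a subunit of the flavoprotein that carries electrons from fatty acid oxidation, had 11.61 and 11.86 with MitoPBN and 11.89 with decylubiquinone, all below controls of 12.08 to 12.48. It fell by 0.56 with MitoPBN (limma adjusted p = 0.0209) and differed by -0.40 with decylubiquinone. Etfdh, which passes those electrons on to ubiquinone, fell by 0.47, and decylubiquinone was at the control level (0.03 above the mean). Aifm2, the ferroptosis suppressor FSP1 that reduces ubiquinone at the plasma membrane, fell by 0.53. The list's medians were -0.41, -0.16 and 0.00 on the 3 arrays, and -0.21 to 0.13 in the controls, so only the first MitoPBN array was outside.

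**Figure D4:**
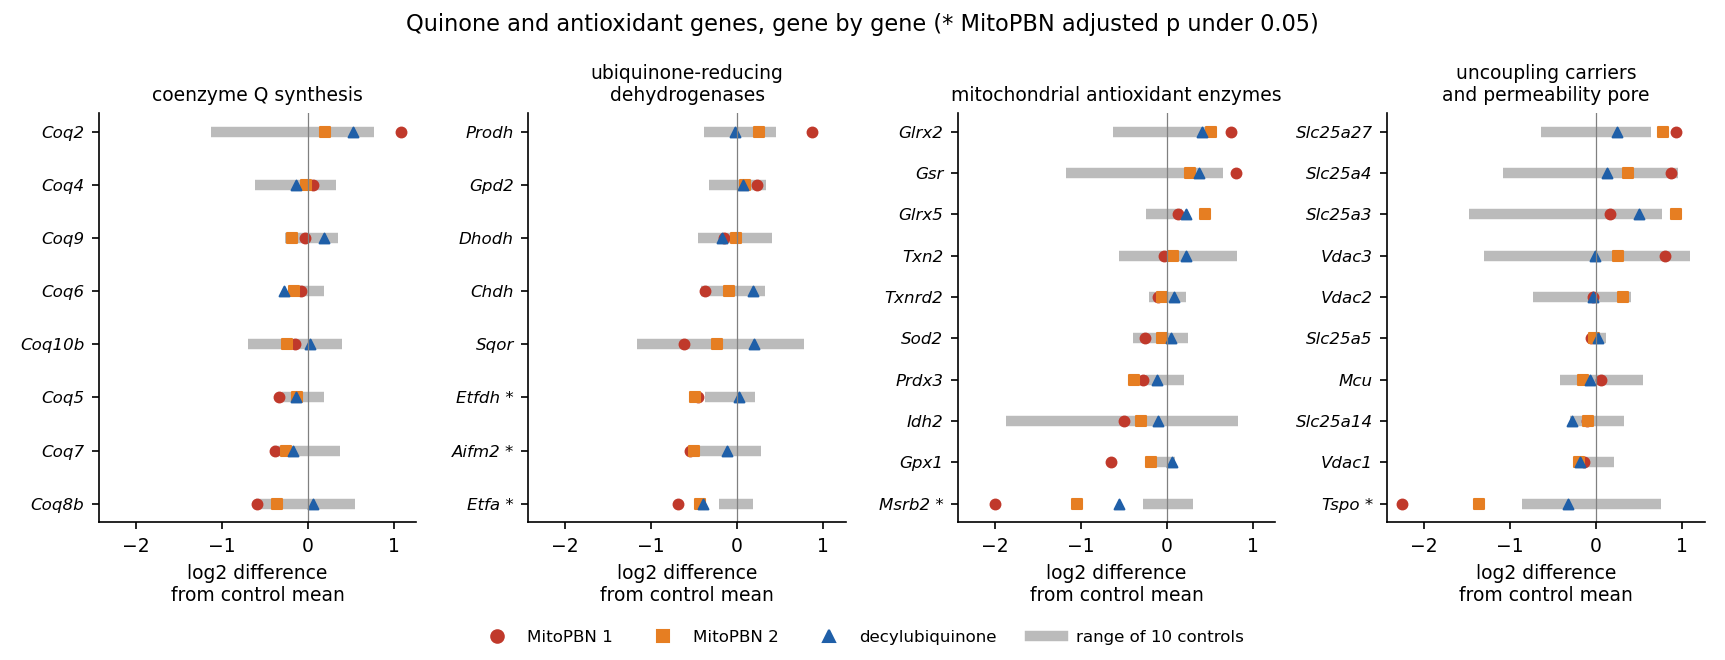
Log2 difference from the control mean for each measured gene of 4 lists on quinones, antioxidants and the permeability pore, with the range of the 10 controls in grey; an asterisk marks genes past the MitoPBN test. Most marks fall in or near the grey bars, and Msrb2 and Tspo lie furthest to the left.

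Nrf2 targets, the detoxification and glutathione genes, included some that were high with both compounds. Of 21 measured, 4 rose with MitoPBN (19%, against 3.38% of all genes) and none fell. Against the vehicle controls alone, which share the compounds' solvent, 0 passed in limma (1643 of all probes did), and under scaling to equal medians over all probes none passed and the list's MitoPBN median turned to -0.17, with all genes at -0.40. The list medians were 0.28 and 0.03 on the MitoPBN arrays and 0.28 with decylubiquinone, and controls ran from -0.25 to 0.24. On the decylubiquinone array 7 of the 21 lay above all controls, against 5.06% of all genes, and none below. Since that array is 1 culture, these 7 are a description. Within their chips the list's medians were 0.28 and -0.23 for the MitoPBN arrays, opposite in sign, and 0.16 for decylubiquinone.

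Hmox1, heme oxygenase 1, which degrades heme to biliverdin, had 11.10 and 10.93 with MitoPBN and 10.82 with decylubiquinone, all above controls of 10.09 to 10.64. It rose by 0.61 with MitoPBN (1.52-fold, limma adjusted p = 0.0337) and was 0.41 above the controls with decylubiquinone. Abcc4, an efflux pump of the multidrug resistance family, read 9.09, 8.75 and 8.80 in the same order against 8.15 to 8.53. Its MitoPBN minus decylubiquinone difference was 0.13 (95% interval -0.32 to 0.57).

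Slc7a11, the cystine importer that supplies glutathione synthesis, was uneven, with 9.57 and 7.95 with MitoPBN, 8.22 with decylubiquinone and a control range of 6.59 to 7.99. The second MitoPBN array lay inside the controls; the fit gave 2.65-fold (limma adjusted p = 0.0384). Osgin1, an oxidative stress-induced growth inhibitor, rose by 1.26, and all 3 arrays lay above its controls. Gclm, the regulatory subunit of glutathione synthesis, was above the controls on the decylubiquinone array (9.65 against at most 9.32) and on the first MitoPBN array (9.57), and inside them on the second (9.19). Nqo1, a quinone reductase often used as an Nrf2 marker, read 6.59, 6.27 and 7.25, within controls of 6.20 to 7.27. The antioxidant response element core, TGACNNNGC, was found in promoters of 1 of 3 risen genes with a promoter in the table, against 14% of genes. Of all measured members with a promoter, 5 of 18 matched. A first search with TGA, any 4 bases and GCA had matched all 3 risen genes and 6 of the 18, against 14.7% of genes. The letters were changed to the core after that result was seen, so the count depends on the letters chosen.

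Decylubiquinone alone gave no gene past the threshold: in limma 0 of 17815 probes passed (0%; smallest adjusted p 0.896), and 628 probes had an unadjusted p under 0.05 (3.53%). With 1 array its spread was assumed to be that of the other groups. By range alone, 499 of 9869 genes lay above all 10 controls (5.06%) and 743 below (7.53%), and 15 of the former (0.152%) and 10 of the latter (0.101%) also differed from the mean control by 1 or more on the log2 scale. A single control lay outside the range of the other 9 for 1446 to 7029 of 17815 probes. That count is by probe and against 9 arrays. Genes outside the range on the decylubiquinone array are therefore a description. The median absolute log2 difference of that array over probes was 0.17, and a control against the other 9 had 0.15 to 0.31 with a median of 0.19. The first MitoPBN array, at 0.35, was above that range, and the second, at 0.27, within it.

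The largest of these differences was the fall of Cbwd1, a GTPase family gene, at 5.81 against controls of 6.72 to 8.03, with MitoPBN at 7.83 and 6.57. The largest rise was Ddx6, an RNA helicase of processing bodies, at 10.02 against 7.93 to 8.96, with MitoPBN at 8.95 and 8.95. Neither was shared with both MitoPBN arrays. Mul1, a mitochondrial outer-membrane ubiquitin ligase, was below the controls with decylubiquinone only, at 6.67 against 6.87 to 8.95. Bach1, the repressor that opposes Nrf2 at heme oxygenase, was above its controls (5.73 to 6.86) on all 3 arrays, at 7.46 and 7.14 with MitoPBN and 7.46 with decylubiquinone.

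Both MitoPBN arrays lay above all controls for 712 genes (7.21%) and below for 1391 (14.1%), or, by probe, for 1466 (8.23%) and 2224 (12.5%). All 3 arrays were above for 195 genes (1.98%) and below for 365 (3.70%). Beside Uba6, Prmt8, Cfap206 and Morn5, the shared genes with the largest smallest difference were, above, Asic1, an acid-sensing ion channel (1.35 with MitoPBN and 1.03 with decylubiquinone), Actl6b, a neuronal chromatin remodelling subunit (1.28 and 0.92), Rai1, Ppp1r14c, Zmiz1 and Gpatch8. Below, they were Poln, a DNA polymerase (-1.98 and -1.32), Hc, complement C5, Bbox1, a carnitine synthesis enzyme (-1.59 and -0.997), and the collagens Col8a2, Col26a1 and Col18a1. Among genes outside the controls on the MitoPBN arrays but not with decylubiquinone, Xist, the RNA that coats the inactive X chromosome, read 9.88 and 9.50 against controls of 7.27 to 9.09, with decylubiquinone at 8.98. The Y-linked genes Kdm5d and Uty were detected on 7 and 4 of 10 controls and on neither MitoPBN array. Their MitoPBN intensities lay inside the control ranges, and decylubiquinone detected Kdm5d only. Whether the cultures differed in sex composition was not tested.

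Against separate controls, the arrays can be set side by side without a shared reference. In each pair an array was taken minus the mock controls and its partner minus the vehicle controls, and r was averaged over both assignments. Across 17815 probes, the first and second MitoPBN arrays gave r = 0.632. The first MitoPBN array and decylubiquinone gave 0.349, and the second and decylubiquinone 0.370. Over all 703 pairs of 38 compound arrays the median was 0.0875, the range -0.579 to 0.745, and 14 pairs exceeded the MitoPBN pair. Z-VAD-FMK, the other compound with a repeat array, gave 0.430. These are correlations across probes, which are not independent, and the points share the normalization and, between pairs, the controls.

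**Figure D5:**
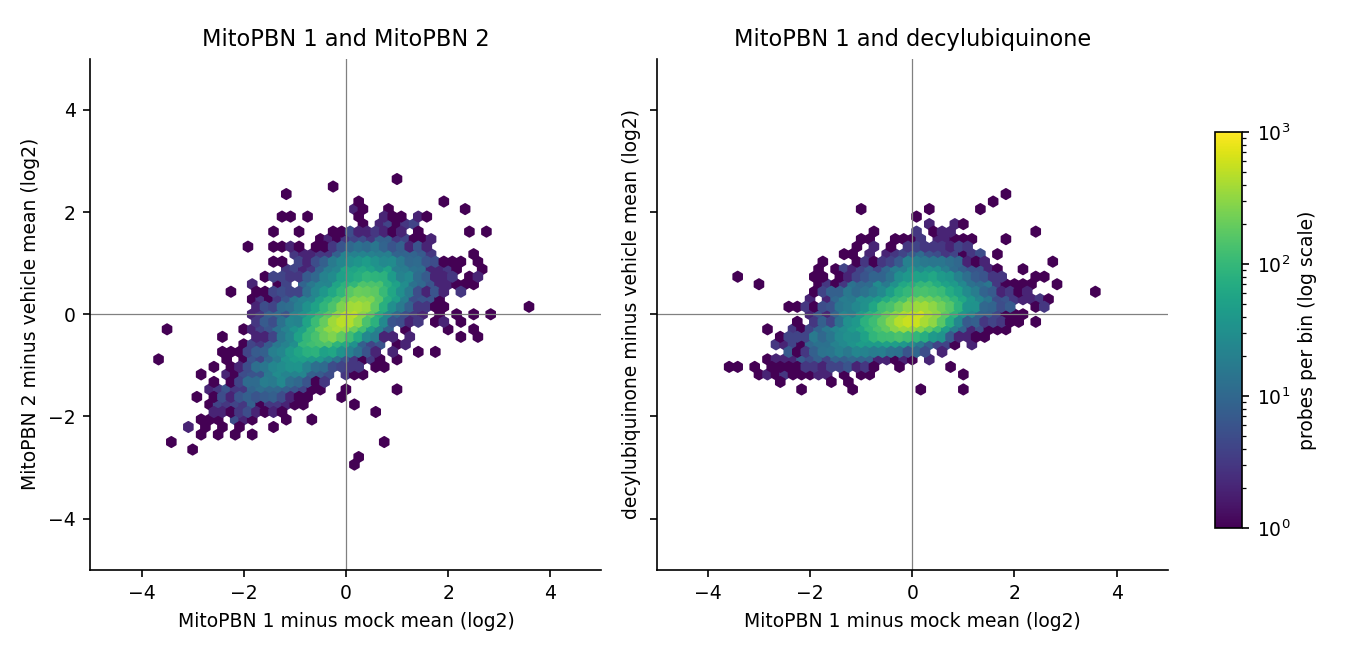
Each panel bins the 17815 probes by the log2 difference of the first MitoPBN array from the mock controls (horizontal) and of the second MitoPBN array or the decylubiquinone array from the vehicle controls (vertical); colour is the number of probes per bin on a log scale. The left cloud is tilted (r = 0.632), and the right one is flatter (r = 0.349). Each r is averaged over both assignments of the mock and vehicle controls, whereas each panel shows a single assignment.

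The direct tests of the compounds found no gene. MitoPBN minus decylubiquinone had 0 of 17815 probes past limma's threshold (0%), with 790 at an unadjusted p under 0.05 (4.43%) and a smallest adjusted p of 0.784. The 95% interval of that difference reached, in the median, 0.67 on the log2 scale to either side. That interval is not adjusted for the number of probes, and differences well above this size, such as those of Gbp3 and Rrm2, did not pass either. In the 3 pairs of single arrays, adjusted over probes and pairs together, 0 probes passed in each, while 449 (2.52%; first and second MitoPBN array), 1151 (6.46%; first MitoPBN array and decylubiquinone) and 334 (1.87%; second MitoPBN array and decylubiquinone) had an unadjusted p under 0.05. Without vehicle 1 and mock 2, 1 probe passed between MitoPBN and decylubiquinone, of Serping1, the complement C1 inhibitor (-2.29, limma adjusted p = 0.0327), and 3 passed among the pairs. A p above the threshold does not show that the compounds act alike. The 2 compounds differ in the radical-reacting group, and only MitoPBN carries a targeting cation.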

How the data were processed

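Average bead intensity per probe on a linear scale, with a detection p-value beside each signal, was taken as deposited; per the submitters' processing notes it came from BeadStudio, and no background subtraction or scaling is stated. The deposited series matrix holds the same intensity values less 1 constant per array (32.3 to 111) and was used as an alternative.

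Signals of 46632 probes on all 48 arrays were background-corrected with limma's normexp model from the detection p-values (offset 16), then quantile normalized and log2 transformed. The 17815 probes with a detection p under 0.01 on at least 6 arrays were tested; 13937 of them carry 1 symbol, for 9869 genes, from GEO's platform annotation. Each gene is represented by its probe of highest mean. The 2 MitoPBN arrays, 1 decylubiquinone array and 10 controls were fitted as 3 groups with limma 3.58.1 (lmFit, eBayes; R 4.3.3), two-sided, with Benjamini-Hochberg adjustment over all probes tested and a threshold of 0.05. The pairs of single arrays were fitted as 3 groups of 1, with the spread of the controls, adjusted over probes and 3 pairs. The fit was tested on simulated data. With arrays, precision is limited by how many there are. For a gene detected on no array of a group a bound is given, its values there raised to the lowest signal of a detected probe on each array.

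Members and the 42 gene lists were chosen with earlier results of these data known. Named genes are the 10 largest rises and falls with MitoPBN past the threshold; the 10 largest in each direction shared by both MitoPBN arrays, the 8 for decylubiquinone and the 8 for all 3 arrays, all outside the control range; up to 4 members per list by p; and any member of the coenzyme Q, mitochondrial antioxidant and pore lists. Further list members were named after their values were seen, as were the genes in the other observations. Replicate numbers did not pair the samples. Promoters and their coordinates come from RefSeq (GRCm38.p6). Of the 4 motifs searched, the letters of the antioxidant response element were changed, and those of the C/EBP-ATF element shortened by a final free base, after a first search had been seen. The alternatives without vehicle 1 and mock 2 together, and with median scaling over probes detected on all 13 arrays, were chosen after seeing the data. Tables were summarised with pandas 2.3.3 in Python 3.11.15, and figures drawn with matplotlib 3.10.9.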

Additional observations from a re-analysis of the deposited data

Results flagged for a closer look

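Among the 10 controls, 1 array stood apart from the rest for 15 of the 226 named genes and for 7 list medians; chance flags about 1 in 20 groups. All of these came from vehicle 1 or mock 2. Vehicle 1 was far above the other controls for the neuronal and synaptic genes Sncb (8.23 on the log2 intensity scale), Sv2a (9.54), Dlg2 (8.35) and Rims1 (6.25), for the activity-regulated gene Egr3 (7.32), for Emx1 (6.52), a cortical transcription factor, and for Herpud1 (7.86), an endoplasmic reticulum stress gene. It was far below them for Fas (6.62), a death receptor. Its list medians, as log2 differences from the other 9 controls, were 1.41 for general neuron markers, 1.30 for synapse genes, 0.86 for excitatory neuron markers, 0.84 for glutamate receptor genes, -0.29 for cytosolic antioxidant enzymes and -0.51 for uncoupling carriers and the permeability pore.

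Mock 2 was far below the other controls for the cilia genes Morn5 (8.77), Cfap161 (7.53), Odf3b (9.04), Tekt1 (8.73), Rsph1 (10.46) and Cfap299 (8.47), for the mitochondrial ribosomal gene Mrpl24 (10.59), and for the median of the cilia list (-1.02). Mock 2 is also the only control on the chip of the second MitoPBN array.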

How the results depend on the processing

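Directions of the 6 list medians given first (stress response, interferon, neuron, cilia, cell division and DNA replication) were the same under every alternative run; counts of calls were not. Of 2253 probes called with MitoPBN (720 higher, 1533 lower), scaling arrays to equal medians left 1260 (8 higher), with a stress response median of 0.46, a DNA replication median of -1.51, and 85 probes above and 4043 below all controls on both MitoPBN arrays (1466 and 2224 in the main setting). Median scaling over probes detected on all 13 arrays, chosen after seeing the data, left 910 lower, with an interferon median of -0.49. Without vehicle 1 and mock 2 together, also chosen after seeing the data, 4221 were called (1899 higher, 2322 lower), 1 between MitoPBN and decylubiquinone (Serping1) and 3 among the pairs, 2826 lay above the 8 controls, and all 104 named genes still passed. These controls were left out because they differ from the rest in measured genes, which by construction lowers the spread of the remaining 8. The interferon median was -0.48 with no background correction, -0.46 with an offset of 50, -1.03 from the series matrix (floor of 16) and -1.01 over probes detected on all 13 arrays. Without the filter on dim probes, decylubiquinone had 1 call (Tomm6), the pairs of arrays had 2, and 2240 probes lay above all controls on both MitoPBN arrays. Against vehicle controls only, 465 probes were higher, and 2477 and 3775 lay above and below the 5 controls; against mock controls only, 3718 were called (1894 higher), 3858 and 3361 lay above and below, and the pairs had 4. With chip as a random block 3727 were called (1597 higher) and the pairs had 34; with chip as a fixed block, which left 3 residual degrees of freedom, the pairs had 2, and 6 microglial markers and 2 stress response genes passed.

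With chip and position as terms over all 48 arrays, MitoPBN had 0 calls (0 higher, 0 lower) and Acadm turned to 0.038. Against other compounds at the same position it had 0 calls, Rai1 turned to -0.0035, and the medians were -0.47 (interferon), 0.37 (neuron), -1.03 (cilia), -0.64 (cell division) and -0.46 (DNA replication). The replicate numbers do not pair the samples (correlations of same-numbered controls -0.141 to 0.146, none the best partner), and with the replicate block MitoPBN had 0 calls in limma, with 3158 probes at an unadjusted p under 0.05.

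Leaving out each array in turn gave 1 to 3741 calls (0 to 1708 higher, 1 to 2033 lower): 1 (Sri) without the first MitoPBN array, 706 without the second, and 1741 to 3741 without 1 control, the highest without vehicle 1; without mock 4, 477 were higher. Stress response medians were 0.67 to 1.09, pairs had 0 to 4 calls (4 without vehicle 3), and 1478 to 2481 probes lay above and 2248 to 2656 below all controls. Of 104 named genes that passed with MitoPBN, 46 passed without the second MitoPBN array and none without the first. The causes of these changes were not tested. A lone array was assumed to vary like the other groups, and signal near background limits dim probes, whose differences shrink with the offset.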

Other observations

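Further lists held single genes that passed with MitoPBN, where 3.38% of all genes rose and 9.76% fell. Of 8 measured markers of vessel and meningeal cells 3 fell, among them Acta2, smooth muscle actin, by 1.73 and Flt1, a VEGF receptor, by 1.34 on the log2 scale, while Pdgfrb, a pericyte receptor, rose by 0.73. Col1a1 was detected on 4 of 10 controls and on none of the 3 compound arrays. Hypoxia and glycolysis genes showed no common direction, with 2 of 19 risen and 3 fallen: Vegfa, the vascular growth factor, rose by 1.09 and Hk1 by 0.64, whereas Pfkp, a phosphofructokinase, fell by 1.26, Egln3 by 1.07 and Tpi1 by 0.57. Mitochondrial ribosomal protein genes had 3 of 63 lower (Mrpl24, Mrpl49 and Mrpl27; 4.76%, below the share of all genes), with list medians of -0.21 and -0.10 on the MitoPBN arrays and -0.10 with decylubiquinone, against -0.10 to 0.11 in the controls. None of these genes passed with the arrays of other compounds at position E in place of the controls.

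Some probes switched between a high and a background level from culture to culture. Tmem68 read 8.58 on both MitoPBN arrays and 4.47 on the decylubiquinone array, and it was detected on 6 of 10 controls, which spanned 4.42 to 9.13. A probe of H2-D1, a major histocompatibility gene, read 4.69, 4.64 and 4.51 on the 3 compound arrays and 4.38 to 10.26 in the controls, of which 5 detected it. Its other probe read 11, 11.73 and 12.25 against 10.92 to 12.45.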
